A study of Homo sapiens with 6 samples.

Results

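Of the 19970 protein-coding genes on chromosomes 1 to 22 and X in GENCODE v44, 4958 had a CpG-poor promoter, defined as fewer than 60 CG dinucleotides (CpG) in the hg38 genome within 1500 bp on either side of the gene start. The remaining 15012 promoters held 60 or more CpG. The gene start was the first base of the gene as annotated, so for a gene with several transcripts it was the outermost start. The rule uses sequence alone and no measured value. Genes whose promoters overlap share the peaks in the overlap.

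The libraries came from parental NCI-H661 cells, an established line from a lung large cell carcinoma, a kind of non-small cell lung cancer, which expresses DPPA2 and DPPA4 and received no treatment. In sequential chromatin immunoprecipitation (reChIP), chromatin pulled down with a first antibody is released and pulled down again with a second. The aim is to sequence fragments recognised by both. H3K4me3 followed by H2AK119ub (K4–K119), the reverse order (K119–K4) and IgG in both steps (IgG–IgG) were each done in 2 biological replicates, giving 6 libraries. All came from 1 cell line of 1 genotype, and a pulldown of either mark followed by IgG was not analysed here.

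Most human genes start in a CpG island, a stretch rich in unmethylated CpG. H3K4me3, the mark of active and poised starts, is placed there by SET1 and MLL complexes that are drawn to unmethylated CpG through CxxC domains. H2AK119ub, the mark of Polycomb repressive complex 1, reaches CpG islands in part through the CxxC protein KDM2B. CpG-poor promoters lack this platform and are typical of genes used in few tissues, such as olfactory receptors, keratins and liver enzymes.

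The deposited lists gave 104207, 123266, 148086 and 190786 peaks for K4–K119 replicates 1 and 2 and K119–K4 replicates 1 and 2, and 28672 and 31741 for IgG–IgG. A peak of 10 or more reads is called a strong peak here. There were 19235, 8656, 9878 and 6437 strong peaks in the reChIP libraries, but 1 and 2 in IgG–IgG. The lists hold reads inside peaks alone and the sequencing depth is unknown. The reads given below are those of the whole peak, including any part outside the promoter. Where 4 read numbers are given for a gene, they are in the order K4–K119 replicate 1, K4–K119 replicate 2, K119–K4 replicate 1 and K119–K4 replicate 2.

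To show the sequences in question, 200 bases of hg38 are printed for several promoters, 5′ to 3′ along the gene, with each CG dinucleotide in capitals. ZDHHC8, which encodes a palmitoyltransferase, was the CpG-poor promoter ranked highest for peaks in all 4 reChIP libraries, and it is shown before the gene start (chr22:20129256-20129455, plus strand, 1 CpG) and before the start of its canonical transcript (chr22:20131604-20131803, plus strand, 30 CpG). LORICRIN is shown within its coding exon, beneath its peaks (chr1:153261522-153261721, plus strand, 31 CpG). TNFRSF1A (chr12:6342115-6342314, minus strand, 3 CpG), PIGC (chr1:172444087-172444286, minus strand, 10 CpG) and INPP5B (chr1:37947054-37947253, minus strand, 4 CpG) are shown before the gene start because strong peaks lay over or beside it. ALB, the serum albumin gene of hepatocytes, is shown as a CpG-poor promoter with no strong peak (chr4:73396914-73397113, plus strand, 0 CpG).
ZDHHC8 gene start: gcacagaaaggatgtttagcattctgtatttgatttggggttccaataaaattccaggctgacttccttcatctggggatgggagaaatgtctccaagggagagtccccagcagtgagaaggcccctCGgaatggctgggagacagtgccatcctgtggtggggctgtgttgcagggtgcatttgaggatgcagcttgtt
ZDHHC8 canonical start: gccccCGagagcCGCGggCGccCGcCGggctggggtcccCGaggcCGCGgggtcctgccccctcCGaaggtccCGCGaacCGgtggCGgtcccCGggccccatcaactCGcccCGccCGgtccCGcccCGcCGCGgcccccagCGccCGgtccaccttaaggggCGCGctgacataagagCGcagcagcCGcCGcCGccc
LORICRIN coding exon: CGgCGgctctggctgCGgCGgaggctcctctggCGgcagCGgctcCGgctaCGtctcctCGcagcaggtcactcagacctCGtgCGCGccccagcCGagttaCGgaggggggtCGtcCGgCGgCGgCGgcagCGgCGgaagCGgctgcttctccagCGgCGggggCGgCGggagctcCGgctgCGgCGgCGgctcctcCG
TNFRSF1A gene start: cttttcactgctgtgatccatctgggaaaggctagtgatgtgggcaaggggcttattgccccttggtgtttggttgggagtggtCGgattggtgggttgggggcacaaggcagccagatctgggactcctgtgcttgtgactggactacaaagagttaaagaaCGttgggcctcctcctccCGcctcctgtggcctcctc
PIGC gene start: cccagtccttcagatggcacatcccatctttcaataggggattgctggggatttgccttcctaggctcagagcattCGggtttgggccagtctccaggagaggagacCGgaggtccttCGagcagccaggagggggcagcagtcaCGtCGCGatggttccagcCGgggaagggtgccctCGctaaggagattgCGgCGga
INPP5B gene start: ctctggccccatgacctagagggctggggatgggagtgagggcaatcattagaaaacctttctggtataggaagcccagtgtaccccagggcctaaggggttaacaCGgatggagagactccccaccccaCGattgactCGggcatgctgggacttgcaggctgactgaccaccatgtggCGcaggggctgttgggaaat
ALB gene start: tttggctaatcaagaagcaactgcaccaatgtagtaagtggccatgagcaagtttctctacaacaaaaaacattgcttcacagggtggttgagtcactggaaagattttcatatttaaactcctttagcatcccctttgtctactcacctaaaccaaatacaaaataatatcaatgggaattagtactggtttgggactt

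The first question was how many CpG-poor promoters carried both marks by this measure. In K4–K119 replicate 1, 268 of 4958 CpG-poor promoters (5.41%, exact 95% binomial interval 4.79 to 6.07%) overlapped a strong peak, where 65% of all promoters did. In K4–K119 replicate 2 it was 57 (1.15%, 0.872 to 1.49%), where 37.2% of all promoters did. The reverse order gave 52 in replicate 1 (1.05%, 0.784 to 1.37%) and 21 in replicate 2 (0.424%, 0.262 to 0.647%), against 42.3% and 28.9% of all promoters. No promoter of either class overlapped a strong peak in the IgG–IgG libraries (0% in both), which for the CpG-poor class allowed a share of up to 0.0744% per library. Intervals cover counting error only.

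Promoters of 60 or more CpG had a strong peak in 84.6%, 49.2%, 55.9% and 38.3% of cases in the same 4 libraries. The share at CpG-poor promoters was thus lower by 37.8 to 79.2 percentage points in every reChIP library, with a mean difference of 54.98 ± 17.6 (SD, n = 4 libraries). The exact two-sided sign-flip permutation test gave p = 0.125, which is the smallest that 4 libraries allow, and 0.25 after Benjamini-Hochberg adjustment over the 4 tests made. As a ratio, strong peaks were 15.7 and 42.8 times as frequent at promoters of 60 or more CpG in the K4–K119 replicates, and 53.3 and 90.4 times in the K119–K4 replicates. The ratio was lowest in the library with the most strong peaks. With 6437 strong peaks taken from each library, those with most reads, the CpG-poor shares were 0.948, 0.726, 0.605 and 0.424%, and the shares of the other class lay between 38.3 and 39.1%. This comparison was added after the data had been seen.

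Between conditions, the CpG-poor share averaged 3.28% ± 3.01 (SD, n = 2) in K4–K119 and 0.736% ± 0.442 (n = 2) in K119–K4. The replicates of K4–K119 differed by more than the 2 orders did. The difference of 2.54 percentage points fell to 0.414 without K4–K119 replicate 1 and to 0.323 with equal numbers of strong peaks, and it reversed to -6.44 when peaks of any size counted. The exact permutation test gave p = 0.333, the smallest that 2 against 2 libraries can give. Against IgG–IgG the mean share over the 4 reChIP libraries was higher by 2.01 percentage points, every reChIP library lying above both controls (exact permutation p = 0.4, where the smallest possible is 0.0667). Neither design could have passed the 0.05 threshold.

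**Figure D1:**
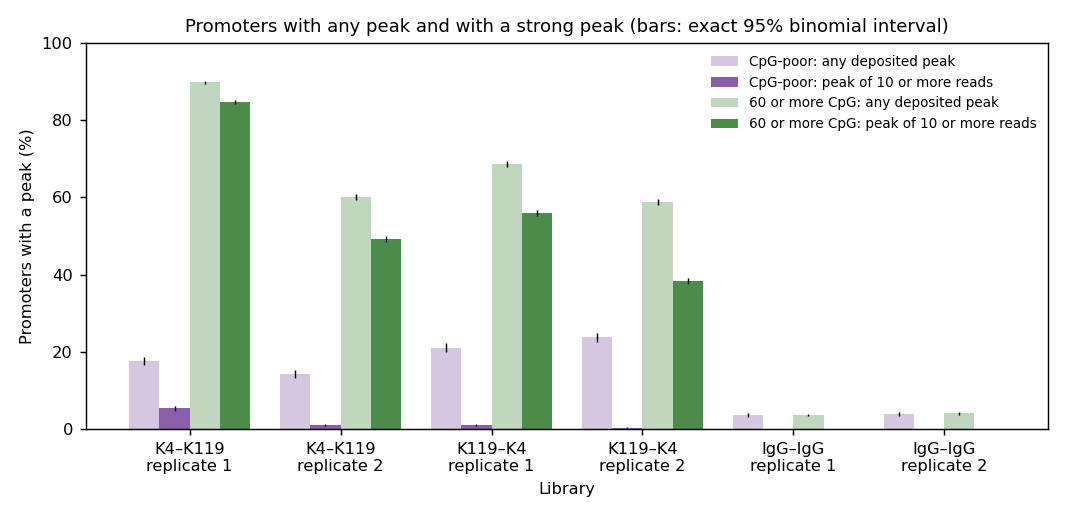
Share of promoters (vertical axis, %) with any deposited peak (pale bars) and with a strong peak of 10 or more reads (dark bars), for CpG-poor promoters (purple) and promoters of 60 or more CpG (green) in each of the 6 libraries, with exact 95% binomial intervals as error bars. Strong peaks fell at 0.424 to 5.41% of CpG-poor promoters in the reChIP libraries and at none in IgG–IgG, where the pale bars of the 2 classes were level.

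Where a CpG-poor promoter had a strong peak, the peak held fewer reads at the median. The median reads of the largest strong peak were 29, 43, 71.5 and 31 at CpG-poor promoters in the 4 reChIP libraries, and 83, 63, 93 and 52 at the others. The log2 ratio of these medians was 0.80 ± 0.50 (SD, n = 4 libraries) and above 0 in all 4, from 0.38 to 1.52 (exact sign-flip permutation p = 0.125, adjusted 0.25). With equal numbers of strong peaks per library the mean log2 ratio was 0.19 (exact sign-flip permutation p = 0.5), above 0 in 3 libraries and -0.18 in K119–K4 replicate 1. The largest CpG-poor peaks reached 485, 242, 513 and 152 reads.

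Peaks of any size told the classes apart less, with shares 2.48 to 5.08 times as high at promoters of 60 or more CpG. At least 1 deposited peak overlapped 17.6, 14.3, 21.1 and 23.8% of CpG-poor promoters in the reChIP libraries, with a median of 2 or 3 reads, and 89.7, 59.99, 68.7 and 58.8% of the others. In IgG–IgG the shares were 3.73 and 3.85% for CpG-poor promoters and 3.62 and 4.10% for the others, so the classes were within 0.244 percentage points of each other. Of the CpG-poor promoters, 2324 (46.9%) had no peak of any size in any reChIP library, against 757 (5.04%) of the others. ALB, whose upstream sequence is printed above, had peaks of 2 reads in both K119–K4 replicates and in IgG–IgG replicate 2 and none in K4–K119.

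The share with a strong peak rose with the CpG count on both sides of the threshold. None of the 105 promoters with fewer than 10 CpG had a strong peak in any library, and of the 980 with 10 to 19 CpG 5 had one, all in K4–K119 replicate 1. No promoter with fewer than 30 CpG had strong peaks in all 4 reChIP libraries. In K4–K119 replicate 1 the share was 1.42% at 20 to 29 CpG, 3.67% at 30 to 39, 9.66% at 40 to 49, 11.6% at 50 to 54 and 20.9% at 55 to 59 CpG. Just outside the threshold, at 60 to 64 CpG, it was 29.9%, so the threshold cut through a gradual rise in this library. The other libraries rose later. K4–K119 replicate 2 had 3.49% at 55 to 59 and 4.35% at 60 to 64 CpG, K119–K4 replicate 1 had 3.75 and 5.37%, and K119–K4 replicate 2 had 1.61 and 2.30%. These 3 libraries reached 22.5, 24.1 and 11.4% at 80 to 99 CpG.

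**Figure D2:**
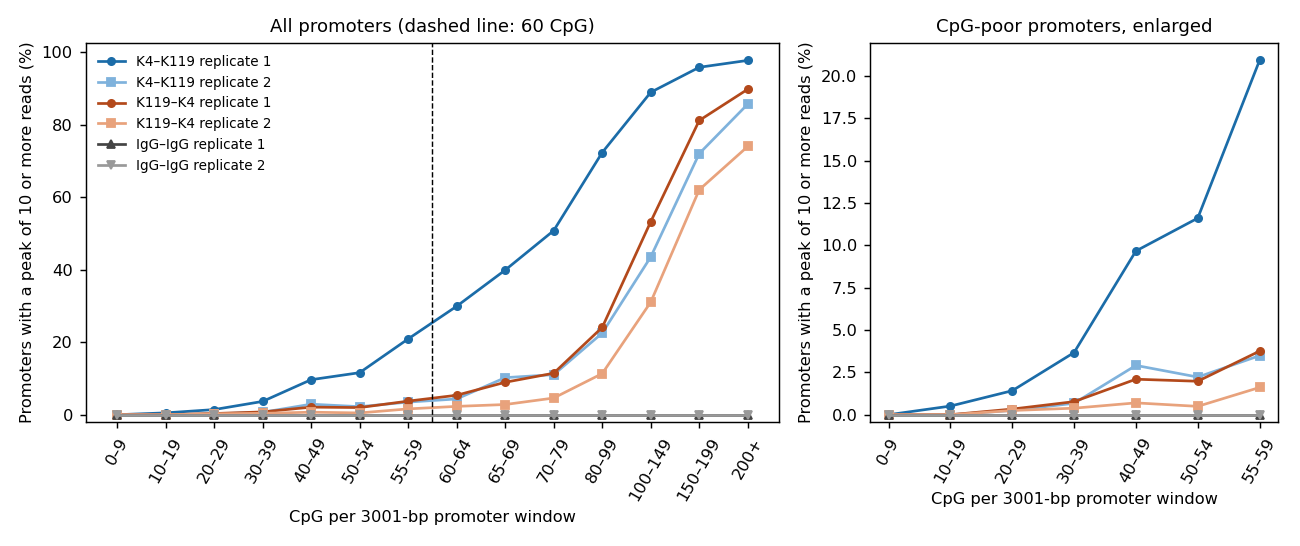
Share of promoters with a strong peak (vertical axis, %) by class of CpG count in the promoter (horizontal axis), 1 line per library, with the CpG-poor classes enlarged at right. The share rose with the CpG count in each reChIP library, apart from a dip at 50 to 54 CpG in 3 of them, and reached between 74.0 and 97.7% at 200 or more CpG, and the IgG–IgG libraries stayed at 0.

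Across libraries, 277 CpG-poor promoters (5.59%) had a strong peak in at least 1 reChIP library, where 65.2% of all promoters did. Of these, 203 had it in 1 library, 39 in 2, 23 in 3 and 12 in all 4, the last being 0.242% of the class (0.125 to 0.422%), where 25.2% of all promoters had peaks in all 4. Among promoters of 60 or more CpG, 5012 (33.4%) had them in all 4. Of the 203 promoters with a peak in 1 library, 195 (96.1%) had it in K4–K119 replicate 1. Among promoters of 60 or more CpG it was 3521 of 3561 (98.9%). The peaks at the 195 had 10 to 455 reads and a median of 23, and 82 of them held fewer than 20 reads. Of these 195, 93 (47.7%) also had a peak of fewer than 10 reads in another reChIP library. By library these were 39 in K4–K119 replicate 2 and 43 and 38 in K119–K4 replicates 1 and 2. Over all 4958 CpG-poor promoters, only peaks of fewer than 10 reads lay at 653 (13.2%), 994 (20.0%) and 1157 (23.3%) in the same libraries. Such small peaks were thus common in the class as a whole, and whether the 195 had more of them was not tested. Of the 57 promoters of K4–K119 replicate 2, 55 were among the 268 of K4–K119 replicate 1, as were 45 of the 52 (86.5%) of K119–K4 replicate 1. Among promoters of 60 or more CpG the numbers were 7361 of 7379 and 8369 of 8392 (99.7%).

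Peaks at CpG-poor promoters lay off the gene start. Here each promoter counts once, by its largest strong peak, so genes that share a peak each count it. In K4–K119 replicate 1 this peak contained the gene start at 98 of 268 promoters (36.6%), against 67.9% at promoters of 60 or more CpG. In K4–K119 replicate 2 it was 6 of 57 (10.5%) against 59.0%, in K119–K4 replicate 1 it was 7 of 52 (13.5%) against 62.0%, and in K119–K4 replicate 2 it was 1 of 21 (4.76%) against 49.35%. Most of the others lay entirely downstream, 52.2 to 81.0% of the CpG-poor peaks by library, and 11.2 to 19.2% lay entirely upstream. At promoters of 60 or more CpG 25.7 to 42.2% lay downstream and 6.4 to 8.4% upstream. Downstream was thus the commoner side in both classes. The centre of the peak was outside the promoter window for 30.6, 63.2, 67.3 and 81.0% of CpG-poor peaks, and for 4.08 to 5.49% of the others. In K119–K4 replicate 2 the median peak of 1200 bp reached only 287 bp into a CpG-poor promoter. The peaks themselves were not all CpG-poor, and 29.5, 59.6, 65.4 and 66.7% of them held 60 or more CpG in their own length. At promoters of 60 or more CpG it was 77.5, 81.7, 80.2 and 81.7%. The CpG-poor windows were selected for fewer than 60 CpG, so such a peak had to extend beyond the window. These shares are therefore partly set by the selection, and they were not tested.

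**Figure D3:**
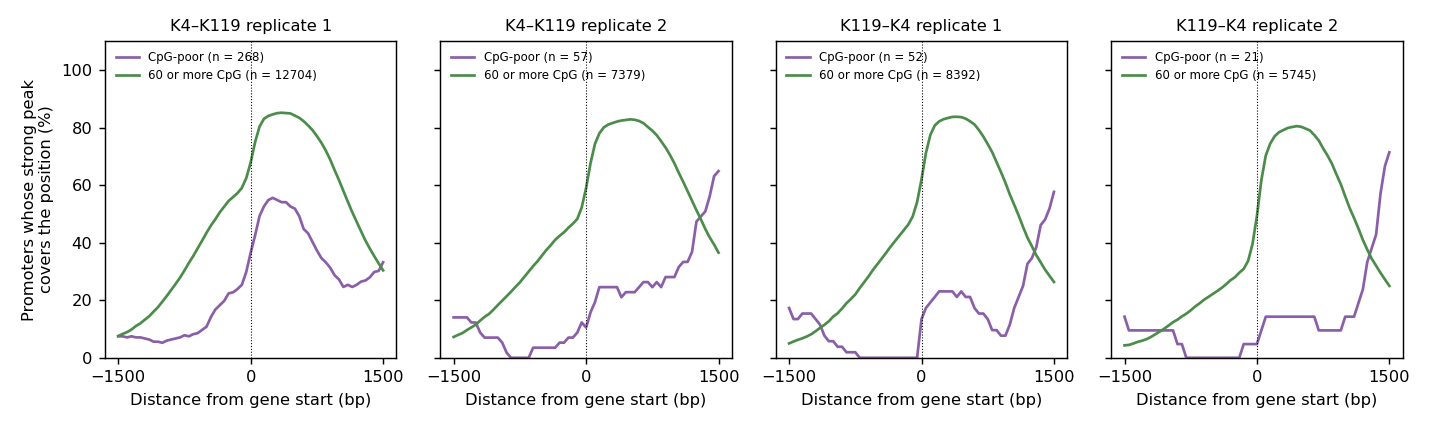
Share of promoters with a strong peak whose peak covers each position (vertical axis, %) by distance from the gene start along the gene (horizontal axis, bp), 1 panel per reChIP library, with the number of promoters in each panel. At promoters of 60 or more CpG coverage was highest within 600 bp after the start, while at CpG-poor promoters it was highest at the downstream edge in every library but K4–K119 replicate 1.

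A strong peak over the gene start itself occurred at 107 CpG-poor promoters in at least 1 reChIP library, at 6 in at least 2, at 2 in 3 and at none in all 4. At promoters of 60 or more CpG the numbers were 9841, 5877, 3903 and 1971. The 6, named after their values were seen, were INPP5B, PIGC, SPARC, TNFRSF1A, CSDC2 and TMEM35A. INPP5B, a phosphoinositide 5-phosphatase gene on chromosome 1 from 37860697 to 37947053 (minus strand), had 47 CpG and peaks of 56, 40, 28 and 2 reads. PIGC, which takes part in the synthesis of the GPI anchor and lies on chromosome 1 from 172370189 to 172444086 (minus strand), had 54 CpG and peaks of 39, 22 and 35 reads, with none in K119–K4 replicate 2. In both genes the peaks of 10 or more reads contained the gene start and the IgG–IgG libraries had no peak, so K119–K4 replicate 2 was the one that lacked a strong peak. The nearest transcript start with 60 or more CpG was 15304 bp away for INPP5B and 1053 bp away for PIGC.

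Nearby CpG-rich starts went with the number of libraries. A transcript start of any gene with 60 or more CpG around it lay within 5000 bp of 14.2% of CpG-poor gene starts in all, of 12.3% of those with no strong peak, of 35.0% of those with a peak in 1 library, of 79.0% in 2 or 3 libraries and of 11 of the 12 in all 4. Likewise the gene had a CpG-rich start of its own in 25.4% of those with no strong peak, 39.4% of those in 1 library and 10 of the 12. The median CpG count of the promoters themselves rose from 30 for no library to 49 for 1, but no further, with 48 for 2 or 3 and 48 for all 4. The densest 500 bp of the promoter held a median of 11, 20, 19 and 19 CpG in the same order, against 55 at promoters of 60 or more CpG. These are descriptions of promoters that share libraries, and no test was made.

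The 12 CpG-poor promoters with a strong peak in all 4 reChIP libraries belonged to ZDHHC8, BAZ2A, MOV10, NAB1, FUT8, ENSG00000285629, CCDC47, AGGF1, RNF215, TNFRSF1A, LORICRIN and PYGO2, in order of rank. Genes were ranked by their weakest library, taking for each library the percentile of the peak's reads among all strong peaks. Their promoters held 34 to 57 CpG. Their peaks had 57 to 403 reads (median 113.5) in K4–K119 replicate 1, 20 to 242 (median 64.5) in replicate 2, 36 to 513 (median 88.5) in K119–K4 replicate 1 and 17 to 152 (median 31.5) in replicate 2. Promoters of 60 or more CpG with peaks in all 4 libraries had medians of 146, 76, 140 and 56 reads. For none of the 12 did all 4 peaks contain the gene start, and the stretch shared by the 4 peaks lay downstream of it in 10 and upstream in 2. This stretch was denser in CpG than the promoter in all 12, with 2.42 to 11.1 CpG per 100 bp (median 7.65) against 1.13 to 1.90 (median 1.60). The promoters were selected for fewer than 60 CpG, which caps their density but not that of the stretch. The difference is therefore partly set by the selection, and it was not tested. A start with 60 or more CpG lay within the peaks of 9 of the 12 genes, and the canonical start itself had 60 or more CpG in 9.

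**Figure D4:**
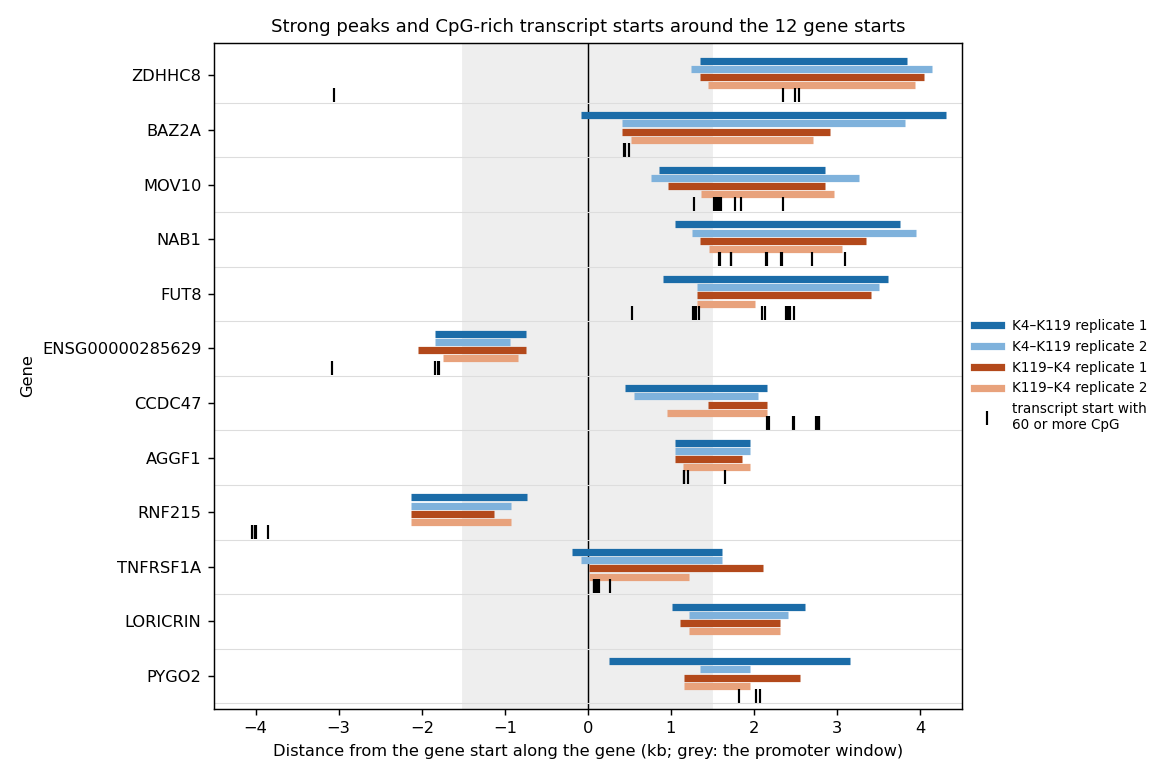
Strong peaks of the 4 reChIP libraries (colored bars) by distance from the gene start along the gene (horizontal axis, kb) for the 12 genes, with the promoter in gray and transcript starts of 60 or more CpG as black ticks. The bars reach into the gray band mostly from its right edge and lie over ticks in 9 genes, and only those of TNFRSF1A, and 1 of BAZ2A, contain the gene start or lie within 14 bp of it.

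In 6 of these genes the peaks covered the CpG-rich canonical start, which lay downstream of the annotated gene start, in at least 2 libraries. ZDHHC8 (chromosome 22, 20129456 to 20148007, plus strand) had 51 CpG at the gene start and 204 at its canonical start 2348 bp downstream. Its peaks held 333, 152, 513 and 152 reads, so that replicate 1 was the higher in both orders. The stretch common to the peaks, from 20130901 to 20133300, held 195 CpG and contained the whole of exon 1 of the canonical transcript.

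MOV10, an RNA helicase that restrains retroelements (chromosome 1, 112673141 to 112700756, plus strand), had 39 CpG at the gene start and 125 at its canonical start 1518 bp downstream. Its peaks held 178, 117, 233 and 87 reads. NAB1, a corepressor of EGR transcription factors (chromosome 2, 190646746 to 190692766, plus strand), had 38 CpG, 213 at its canonical start 2337 bp downstream, and peaks of 335, 139, 252 and 62 reads. In both genes the shared stretch contained exon 1 of the canonical transcript, and in NAB1 also the start of the long noncoding RNA ENSG00000284052 on the other strand.

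AGGF1, which encodes an angiogenic factor (chromosome 5, 77029251 to 77065234, plus strand), had 56 CpG, 48 of them in the densest 500 bp, centred 1245 bp downstream. Its peaks of 86, 30, 53 and 34 reads began 1050 to 1150 bp downstream, just before the canonical start at 1153 bp, which has 114 CpG. FUT8, the fucosyltransferase of core fucose (chromosome 14, 65410592 to 65744121, plus strand), had 57 CpG and peaks of 214, 114, 162 and 29 reads. The FUT8 peaks covered its canonical start, of 216 CpG and 2138 bp downstream, in every library except K119–K4 replicate 2, whose peak ended at 2008 bp, and the start of the antisense FUT8-AS1 lay in the same 3 peaks. RefSeq places the FUT8 start at the gene start, where no library had a peak.

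PYGO2, a PHD finger protein of Wnt signaling (chromosome 1, 154957026 to 154963853, minus strand), had 42 CpG and its canonical start 2071 bp downstream, with 135 CpG. Its peaks of 79, 20, 55 and 18 reads ranked lowest, and those of both replicate 2 libraries ended at 1952 bp, short of the canonical start but over another start of the gene at 1817 bp. The shared stretch of 600 bp also overlapped the last exon of SHC1 and the long noncoding RNA ENSG00000271380.

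In the next 3 genes the peaks lay at or beside other CpG-rich starts. BAZ2A, a subunit of the nucleolar remodeling complex that silences ribosomal DNA (chromosome 12, 56595596 to 56636816, minus strand), had 47 CpG and peaks of 403, 242 and 276 reads in the first 3 libraries, with the lowest number in K119–K4 replicate 2. Starts of its own, 437 to 498 bp downstream and with 78 to 80 CpG, lay in every peak but that of K119–K4 replicate 2, which began at 516 bp, and only the peak of K4–K119 replicate 1 contained the gene start. CCDC47, a protein of the endoplasmic reticulum (chromosome 17, 63745255 to 63776351, minus strand), had 49 CpG and peaks of 77, 44, 59 and 25 reads. They ended 2050 to 2150 bp downstream, short of the canonical start at 2754 bp with 171 CpG, and overlapped exon 1 of the divergent helicase gene DDX42, whose nearest start was at 2161 bp. ENSG00000285629, a gene without a symbol (chromosome 1, 6159430 to 6197757, minus strand), had 57 CpG and peaks of 57, 35, 94 and 49 reads. The stretch shared by the peaks lay upstream, within the transcript of the ribosomal protein gene RPL22, a start of which lay 1796 bp upstream with 102 CpG, inside all peaks but that of K119–K4 replicate 2.

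In the remaining 3 no start beneath the peaks had more than 61 CpG. RNF215, a RING finger protein gene (chromosome 22, 30368811 to 30421771, minus strand), had 34 CpG, the fewest of the 12, and peaks of 108, 57, 36 and 27 reads. All 4 peaks reached upstream to -2129 bp from the gene start, in the last exon of SEC14L2 on the other strand, and the canonical RNF215 start lay 34360 bp downstream. The deposited log2 fold of these peaks over input was 2.90 to 7.36, from 1 or 2 input reads. The nearest start with 60 or more CpG, of MTFP1, was 3852 bp upstream and outside the peaks.

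LORICRIN, a major protein of the cornified envelope of skin (chromosome 1, 153259687 to 153262124, plus strand), had 47 CpG, a canonical start at the gene start and no CpG-rich start within 5000 bp. Its peaks of 102, 40, 51 and 17 reads lay 1014 to 2613 bp downstream. The shared stretch held 118 CpG in 1100 bp and contained the whole coding sequence of 936 bp in exon 2, which alone has 113 CpG and of which 200 bases are printed above. No strong peak lay at its start, just after which K4–K119 replicate 1 had a peak of 4 reads and K119–K4 replicate 1 a peak of 2 reads.

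TNFRSF1A, a receptor of tumor necrosis factor (chromosome 12, 6328757 to 6342114, minus strand), had 57 CpG and its canonical start 38 bp downstream, with 59 CpG. Its peaks held 72, 83 and 22 reads in the last 3 libraries, with the highest number in K4–K119 replicate 1. They contained the gene start in both K4–K119 libraries and began 14 bp downstream of it in both K119–K4 libraries, so the canonical start was inside all 4. The shared stretch, with exon 1, held 29 CpG in 1200 bp, or 2.42 per 100 bp, the lowest density of the 12. The gene had 6 other starts within 266 bp of the gene start with 60 or 61 CpG, at the threshold. An IgG–IgG peak of 2 reads in replicate 2 overlapped the promoter upstream of these peaks, the only IgG–IgG peak among the 12.

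**Figure D5:**
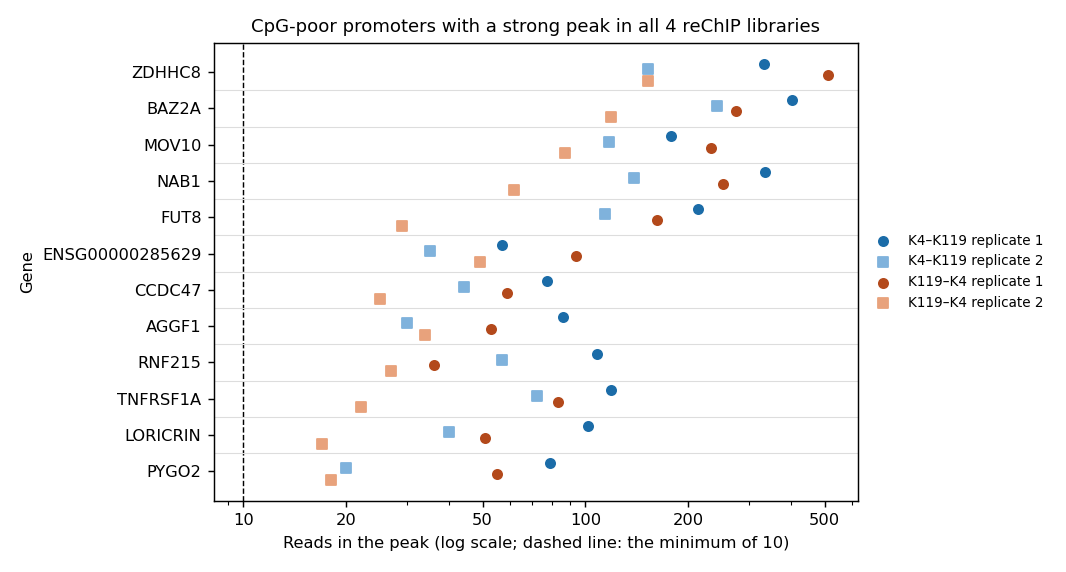
Reads in the strong peak (horizontal axis, log scale) at each of the 12 CpG-poor promoters, 1 symbol per reChIP library, in order of rank from the top. Values run from 17 reads (LORICRIN, K119–K4 replicate 2) to 513 (ZDHHC8, K119–K4 replicate 1), and replicate 1 exceeded replicate 2 within each order at all 12.

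The log2 fold over input that accompanied these peaks was above 1 in all 4 libraries for 5 of the 12, FUT8, LORICRIN, RNF215, TNFRSF1A and ZDHHC8. In both replicate 1 libraries all 12 exceeded 1, in K4–K119 replicate 2 there were 6 and in K119–K4 replicate 2 there were 7. With the start of the Ensembl canonical transcript in place of the gene start, a definition added after the data had been seen, 4418 promoters were CpG-poor and 4 of them (0.0905%) had strong peaks in all 4 libraries. These were ENSG00000285629, LORICRIN, TNFRSF1A and DLG4, a synaptic scaffold gene with 57 CpG and peaks of 108, 76, 48 and 21 reads. Of the 4958 gene starts, the canonical start lay more than 500 bp away in 29.7%, and in 9 of the 12. RefSeq (GRCh38.p14) gave a start for 10 of the 12, of which 6 were more than 500 bp from the gene start.

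Both K4–K119 replicates and neither K119–K4 replicate had a strong peak at 26 CpG-poor promoters (0.524%), where 3.27% of all promoters did, and none showed the opposite (0% of all promoters). Among promoters of 60 or more CpG the numbers were 628 (4.18%) and 0. The K4–K119 libraries also held more strong peaks, 19235 and 8656 against 9878 and 6437. With 6437 strong peaks from each library the numbers were 8 for K4–K119 alone and 1 for K119–K4 alone at CpG-poor promoters, and 236 and 228 at the others. Of the 26, the 6 ranked highest were C1orf35, HERPUD2, CAMKK1, KBTBD2, BRSK1 and SH3RF2. In the K4–K119 replicates C1orf35 had 207 and 131 reads, without a peak in the reverse order, and KBTBD2, a substrate adaptor of a ubiquitin ligase, had 112 and 83 and none. HERPUD2 had 148 and 95 reads, and 2 in K119–K4 replicate 1. CAMKK1, a kinase of the calcium and calmodulin cascade, had 205 and 92, with 3 and 2 reads in K119–K4. BRSK1, a neuronal kinase, had 134 and 82, with 2 reads in K119–K4 replicate 2. SH3RF2 had 137 and 65 and none in K119–K4, and 59 CpG at the gene start. A start with 60 or more CpG lay within 127 to 2245 bp of all 6 gene starts. The difference between the orders could not be tested at single promoters with 2 libraries each.

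CpG-poor promoters with strong peaks in 2 or more libraries but no CpG-rich start within 5000 bp numbered 14, all named after their values were seen. Besides LORICRIN and INPP5B they were BTN2A2 and ZNF35 with peaks in 3 libraries, and TMEM35A, BCL9, DCTN3, DBT, ZNF66, ANK2, SPARC, RARA, AGPAT4 and GLRX with peaks in 2. SPARC, a matrix protein gene of mesenchymal cells with 48 CpG, had peaks of 50, 4 and 19 reads and none in K119–K4 replicate 2, and its strong peaks contained the gene start. BTN2A2, a butyrophilin of immune regulation, had 57, 25, 22 and 2 reads. ZNF35 had 29, 16 and 28 and no peak in K119–K4 replicate 2. RARA, the retinoic acid receptor alpha gene, had 56, 13 and 4 reads and no peak in K119–K4 replicate 2. Such promoters were 65.02% of those with a peak in 1 library, 25.6% in 2, 13.04% in 3 and 8.33% in 4.

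Sequence motifs near the start also differed among the classes. The TATA box TATAAA, sought on the gene strand in the 50 bases before the gene start, was in 8.29% of CpG-poor promoters and 1.83% of the others (3.44% of all). Of the 277 CpG-poor promoters with a strong peak, 8 (2.89%) had it, and none of the 12. The GC box GGGCGG, which contains a CpG and was sought on both strands from 250 bases before to 50 after the start, was in 11.2% of CpG-poor promoters, 66.05% of the others and 52.4% of all. It was in 74 of the 277 (26.7%) and in BAZ2A alone of the 12. CCAAT, sought in the same stretch on both strands, was in 38.3% of CpG-poor promoters, 35.1% of the others, 35.9% of all, 39.0% of the 277 and 6 of the 12. The motifs were matched separately, a match does not show a bound site, and the 277 had more CpG than the class as a whole, with a median of 49 against 31.

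Of 28 gene lists, which together held 1071 CpG-poor promoters, none had a member with peaks in all 4 libraries and 5 had one with a peak in any. Zinc finger genes of the ZNF family, many of which encode repressors of transposable elements, had 11 of 44 (25%), among them ZNF35, ZNF66 and ZNF117. Of the 11, only ZNF35 (3 libraries) and ZNF66 (2 libraries) had a strong peak in more than 1 library. The CpG-poor members of this list had a median of 42.5 CpG. Of all promoters with 40 to 49 CpG, 10.0% had a strong peak in at least 1 reChIP library. The cytochrome P450 enzymes had 4 of 32, CYP2J2, CYP27B1, CYP4F2 and CYP2A6. Solute carriers had 2 of 105, SLC7A11 and SLC13A3, keratins and their associated proteins 1 of 126, KRT77 with 12 reads in K119–K4 replicate 2 alone, and class II major histocompatibility genes 1 of 10, HLA-DMB with 11 reads in K4–K119 replicate 1. These counts stand beside 277 of 4958 for the class.

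No strong peak was found at any of 406 olfactory receptor promoters, with a median of 19 CpG, nor at 24 taste receptors, 17 type I interferons, 45 defensins, 34 chemokines, 29 interleukins or 21 UDP-glucuronosyltransferases. Among the 406 olfactory receptors 213 had no peak of any size in a reChIP library, beside 2324 of the 4958 CpG-poor promoters (46.9%). An IgG–IgG peak of fewer than 10 reads lay at 30 of them, counted over both replicates together. For the 4958 the counts were 185 in IgG–IgG replicate 1 and 191 in replicate 2, each taken alone. The 30 therefore cannot be set directly against either, and no excess is claimed. Of all promoters with 10 to 19 CpG, 5 of 980 had a strong peak in a reChIP library. Strong peaks were also absent at 26 serpins, 15 S100 proteins, 13 claudins, 8 apolipoproteins and 22 PRAME genes. They were absent too at 16 GAGE, MAGE and SSX genes, 15 killer and leukocyte receptors and 30 late cornified envelope and small proline-rich genes. The few CpG-poor members of 4 housekeeping lists had none either, with 6 ribosomal protein genes, 2 tubulins, 2 proteasome subunits and 1 replication-dependent histone. Marker genes of lung epithelium (7), hepatocytes (8), T and NK cells (7) and myeloid cells (5) had no strong peak at a CpG-poor promoter, so these promoters give no check of the labelled cell type.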

How the data were processed

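Libraries, 6 in all and each from parental NCI-H661, were grouped by the submitters' labels into 3 antibody orders of 2 biological replicates each, and all were used. The authors trimmed reads (Trim Galore 0.6.6), aligned them to hg38 (BWA 0.7.13), used SAMtools 1.9, Picard 2.6.0 and deepTools 3.5.0 and called peaks per replicate against input with EPIC2 in bins of 100 bp at an FDR of 0.05. The tool versions come from the submitters' processing notes. The deposited count of reads and of input reads per peak are whole numbers, not scaled. The deposited p-value and FDR, the deposited log2 fold and the deposited score, a capped multiple of that fold, compare a peak with input within 1 library. Since only peaks are listed, the depth per library is unknown, and a region of few reads can be missed in a library of lower depth.

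CpG were counted in the hg38 genome, and peaks were joined to GENCODE v44 gene starts of the same build by an overlap of at least 1 bp. No filter on the fold was applied in the counts reported, although the study keeps a log2 fold above 1. Shares over libraries were compared with exact permutation tests, 4 in number, adjusted by Benjamini-Hochberg. Genes named are those with strong peaks in all 4 reChIP libraries, the 6 ranked highest in 1 order alone and members of the gene lists. Genes with peaks over the start, far from CpG-rich starts or at canonical starts were named after their values were seen. DPPA2 and DPPA4 were not CpG-poor. Members and lists were chosen with earlier results of these data known. Overlap counts were tested on simulated data. Alternatives changed the read minimum, fold, FDR, overlap, CpG threshold, starts and libraries, 1 at a time. Python 3.11.15, numpy 2.4.6, pandas 2.3.3, scipy 1.17.1 and matplotlib 3.10.9 were used.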

Additional observations from a re-analysis of the deposited data

How the results depend on the processing

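The lower share of CpG-poor promoters, and their higher share in reChIP than in IgG–IgG, kept their direction under every alternative that gave a value, but no exact test here could pass the 0.05 threshold. The mean log2 ratio of peak reads stayed above 0 but fell to 0.19 with equal numbers of peaks (exact p = 0.5) and 0.52 below 40 CpG (exact p = 0.375), and was 0.76 at a log2 fold above 2 (exact p = 0.25), in each case with K119–K4 replicate 1 below 0. Leaving out 1 library at a time gave differences of 46.9 to 60.7 percentage points between the classes, 0.874 to 2.54 against IgG–IgG and 0.414 to 4.67 (the lowest without K4–K119 replicate 1) between the orders, and log2 ratios of peak reads of 0.56 to 0.94. The difference between the orders reversed to -6.44 percentage points when any peak counted and was 0.323 with equal numbers of peaks. The number of 12 promoters depended on the definition. It became 13 to 27 without 1 library, 27 of them without K119–K4 replicate 2. It was 5 at a log2 fold above 1, 3 above 2, 43 with any peak, 0 with the gene start in the peak, 2 with the peak centre in the promoter, 3 with 500 bp of overlap, 1 within 500 bp of the start, 3 below 40 CpG and 50 below 80 CpG. It was 1 without genes that have a CpG-rich start within 5000 bp, 2 without genes that have one of their own, 4 at canonical starts and 6 with equal numbers of peaks, both chosen after seeing the data.

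The share of K4–K119 replicate 1 moved to 17.6% with any peak, 2.04% over the gene start, 1.81% below 40 CpG, 14.3% below 80 CpG and 0.948% with equal numbers of peaks. K4–K119 replicate 2 moved to 14.3% with any peak. Its other changes were smaller than the wide spread between the K4–K119 replicates. Among these it was 3.05% below 80 CpG, 0.202% at a fold above 2, 0.121% over the gene start and 0.259% without genes with nearby CpG-rich starts. K119–K4 replicate 1 moved to 0.282% at a fold above 2, 21.1% with any peak, 0.141% over the gene start, 0.343% by peak centre, 0.323% with 500 bp of overlap, 0.262% within 500 bp, 0.361% below 40 CpG, 3.00% below 80 CpG, 0.212% and 0.467% without genes with nearby or own CpG-rich starts, and 0.605% with equal numbers of peaks. K119–K4 replicate 2 moved to 1.23% at 5 reads, 23.8% with any peak and 1.17% below 80 CpG. Over the gene start it was 0.0202%, and without genes with nearby CpG-rich starts 0.0470%, both changes smaller than the spread between the K119–K4 replicates. IgG–IgG moved to 3.73 and 3.85% with any peak. An FDR below 0.01, 20 reads, an input read, shared windows counted once and removal of peaks at IgG–IgG peaks changed no share by more than the spread between replicates. The cause of these changes was not tested beyond what each definition fixes.

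The replicate block cannot change a mean difference, so the values remain 54.98 points between the classes and 2.54 points between the orders. The exact sign-flip permutation test over the 2 pairs gave p = 0.5 for each, the smallest possible. Replicate deviations of the 2 orders correlated at -0.107 over 13024 promoters, so the numbers are not shown to pair the libraries. Crossing the numbers, a pairing added after seeing the data, cannot change the mean difference of 2.54 points between the orders either.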
